A study of Homo sapiens with 6 samples.

Results

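Transcripts of the Wnt pathway were followed in HCT116 cells, a human colorectal carcinoma line, after 48 h with 40 µM NU7441, which inhibits the DNA repair kinase DNA-PK, or with 0.1% (v/v) dimethyl sulfoxide (DMSO), its vehicle. The 2 groups held 3 samples each, with 1 Illumina bead array per sample. Separate cultures are not stated for the samples of either group, so a p-value here reflects sample-to-sample spread that may be technical. Whether the NU7441 cells also received DMSO is not given in the sources used here, and HCT116 was the only line measured. The genes were 41 named members of the pathway, 19 of them components of the signalling machinery and 22 of them published target genes, found by gene symbol. Probes stayed in when all 3 NU7441 arrays or all 3 vehicle arrays gave a detection p-value below 0.05. That left 31 probes of 22 members, against 14973 kept probes of 9342 named genes on the whole array.

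Wnt ligands bind Frizzled receptors together with the co-receptors LRP5 or LRP6. Dishevelled proteins then hold back the destruction complex, a scaffold of axin and APC on which kinases mark β-catenin for degradation. Stabilised β-catenin enters the nucleus and acts with TCF/LEF factors on target genes, several of which encode inhibitors that feed back on the pathway. In the intestine the pathway maintains crypt stem cells. HCT116 cells have intact APC and carry an activating mutation in CTNNB1, the gene of β-catenin.

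The stretches before the start sites of DKK1 and TCF7L2 are shown because they hold letters that TCF/LEF factors are known to bind and because one of these genes had the largest fall among the members. The 4 versions searched were CTTTGAA with its close variant CTTTGAT, and likewise CTTTGTA with its close variant CTTTGTT, on both strands, in the 250 bases before each start site of RefSeq (GRCh38.p14). Of the 22 members with a kept probe, 17 had an entry, with 24 start sites in all. A match was found at 2 of them, or 8.33%, and at 12% of all 35116 start sites in the table. AXIN2, FZD6, FZD7, SOX9 and ZNRF3 were not matched to an entry. Capitals mark the matches. In DKK1 (chr10:52314031-52314280, plus strand) they begin 95 and 76 bases before the start and do not overlap. In TCF7L2 (chr10:113126383-113126632, plus strand, 1 of its 3 start sites) the match begins 133 bases before the start.
DKK1: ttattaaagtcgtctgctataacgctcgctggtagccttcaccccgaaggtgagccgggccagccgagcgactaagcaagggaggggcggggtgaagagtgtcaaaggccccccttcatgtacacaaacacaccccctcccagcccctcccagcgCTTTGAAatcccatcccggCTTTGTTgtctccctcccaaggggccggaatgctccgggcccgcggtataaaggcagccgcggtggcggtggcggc
TCF7L2: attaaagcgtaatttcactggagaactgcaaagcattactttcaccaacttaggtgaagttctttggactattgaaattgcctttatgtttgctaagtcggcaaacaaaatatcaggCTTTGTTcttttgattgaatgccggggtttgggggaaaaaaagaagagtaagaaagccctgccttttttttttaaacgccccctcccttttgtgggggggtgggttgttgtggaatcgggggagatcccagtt
A match is a string of letters, and no binding was measured here.

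The arrays detected 35.1% to 37.6% of 47323 probes each, and their number limits the precision of every value. Of 12 epithelial markers 7 had a kept probe, among them EPCAM, KRT8, KRT19, CDH1 and CDX2, while VIL1, KRT20, LGALS4, CEACAM5 and CLDN4 had none. The summed deposited signal of the epithelial list ran from 3740.5 to 4567.4 on NU7441 arrays and from 4026 to 4723.6 on vehicle arrays. None of 6 endothelial markers had a kept probe, nor had the leukocyte marker PTPRC. Kept probes were found for CD68 and HLA-DRA among 8 leukocyte genes on the array, for COL1A1 among 8 fibroblast genes and for ALB and SERPINA1 among 5 hepatocyte genes. The COL1A1, ALB and SERPINA1 probes were close to background, with group means of 4.50 to 4.87 in log2 intensity. In each of the 4 lists other than the epithelial, most genes had no kept probe, so an overlap of summed signals says little. The summed signals of these 4 lists and of the epithelial list overlapped between the groups, but single marker probes differed. CDH1, E-cadherin, was higher at 0.52 (limma adjusted p = 0.00563), 1 of 2 KRT18 probes was lower at -0.48 (adjusted p = 0.0144), and the dimmer of 2 HLA-DRA probes was called lower at -0.40 (adjusted p = 0.0132). Changes are on the log2 scale, NU7441 minus vehicle. The part of these markers in the results below was not tested. NU7441 replicate 3 stood apart from the other NU7441 arrays on the second principal component, which held 12.8% of the variance, at -19.13 against 16.03 and 5.19 for replicates 1 and 2.

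Levels below are log2 intensities after background correction and quantile normalization. A change is a difference of mean log2 levels, NU7441 minus vehicle (3 arrays each), given with its standard error (SE). The adjusted p-values come from limma with the Benjamini-Hochberg method across all 14973 kept probes, and a probe was called below 0.05. In bulk RNA a change in the number of cells of a kind and a change in RNA per cell cannot be told apart.

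The components that passed the test were all higher, and the target genes went both ways. Of 15 component probes from 10 genes, 5 probes of 5 genes rose after NU7441 and 0 fell. The 5 genes were the receptors FZD6 and FZD7, the transducers DVL2 and DVL3 and the scaffold AXIN1. Of all kept probes 34.2% were called, 16.7% higher and 17.5% lower, which is 2507 and 2619 probes. The split was 1780 higher and 3097 lower with arrays scaled to their 75th percentile, and 3688 and 1911 with that percentile taken over the probes detected on all 6 arrays. Without NU7441 replicate 3 the component count was 3, DVL2 and AXIN1 being lost. It was also 3 without NU7441 replicate 2, and 2 without vehicle replicate 2 or vehicle replicate 3. Without NU7441 replicate 1 it was 5, and 1 component probe, of CSNK1A1, was then lower.

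Of 16 target probes from 12 genes, 4 were called higher and 4 lower. Detection on all 6 arrays was met by 13 of them, of which 4 rose, those of RNF43, ZNRF3, SOX9 and SLC12A2, and 3 fell, the brighter probe of DKK1 and those of BMP4 and NKD2. Over all kept probes so detected, 17.5% were higher and 17.8% lower. The fourth lower call was a dimmer DKK1 probe that passed the detection filter through the vehicle arrays alone and so adds no support. Leaving out any 1 array gave 3 or 4 higher and 4 lower target probes, with 4 and 4 without NU7441 replicate 3. The median change was 0.14 over the component probes and 0.16 over the target probes, beside 0.01 over all kept probes. These medians take in the probes that passed the filter through 1 group alone. With the brightest kept probe per gene the order was reversed, at 0.26 for components and 0.05 for targets, beside 0.002 over all named genes. Over probes, the median size of change regardless of sign was 0.17 for components, 0.31 for targets and 0.24 for all kept probes. The groups did not overlap in 5 component probes, all higher, and in 12 target probes, 7 higher and 5 lower, where 47.1% of all kept probes were free of overlap. The 12 include the dimmer DKK1 probe, kept through the vehicle arrays alone, and the dimmest CD44 probe, kept through the NU7441 arrays alone. Neither of these adds support. The difference between the classes was not tested, because the members were chosen with results of these data known.

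The detection filter shaped which members could be counted. Of the 31 probes, 26 were detected on all 6 arrays, 3 passed through the NU7441 arrays alone and 2 through the vehicle arrays alone. With a detection p-value below 0.01 required on each of the 6 arrays, 12 component probes held 5 higher and 0 lower, and 13 target probes held 4 higher and 3 lower. Under that filter 2229 of all 11473 probes were higher and 2250 lower.

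**Figure D1:**
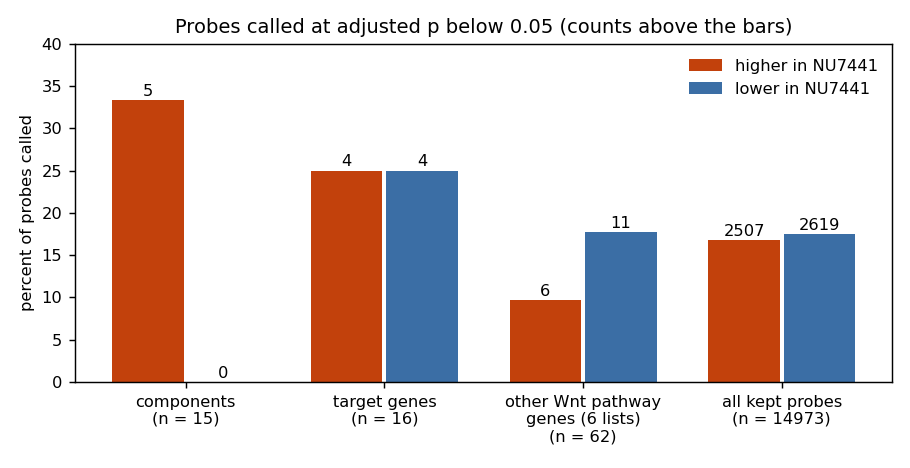
Percent of probes called higher (orange) and lower (blue) in NU7441 at an adjusted p below 0.05, for 15 component probes, 16 target probes, the brightest kept probe of 62 other pathway genes, and all 14973 kept probes, with counts above the bars. The component bar for lower probes is 0, while both target bars stand at 25%. Of the lower calls, 1 target probe and 2 other genes were kept through the vehicle arrays alone.

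Among the receptors, 2 of 4 measured genes rose. Beside this and the counts by role below, 17.8% of all named genes were higher on their brightest kept probe. No role was tested as a set. FZD7, a Frizzled receptor, read 5.64, 5.46 and 5.63 on its brighter probe in NU7441 cells, against 4.81, 4.94 and 5.02 in vehicle cells. All 3 NU7441 arrays lay above all vehicle arrays, a change of 0.65 ± 0.11 (SE, limma adjusted p = 0.000612). Its dimmer probe did not follow, at 5.105, 4.998 and 4.496 in NU7441 cells against 4.651, 4.903 and 4.824 in vehicle cells, where the groups overlapped and the change was 0.07 ± 0.15 (adjusted p = 0.732). The rise of FZD7 therefore rests on 1 of its 2 probes.

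FZD6, a Frizzled receptor known mainly from β-catenin-independent signalling, read 6.03, 6.08 and 6.41 in NU7441 cells against 5.76, 5.43 and 5.80 in vehicle cells. The groups did not overlap, and the change was 0.51 ± 0.14 (limma adjusted p = 0.00997). Vehicle replicate 2 was the lowest array, and without it the change was 0.40 with an adjusted p of 0.0618. FZD4, which also serves as the receptor of norrin, was at 0.20 ± 0.12 (adjusted p = 0.193). The co-receptor LRP5 was at 0.05 ± 0.13 (adjusted p = 0.797), with NU7441 arrays at 6.30, 6.31 and 6.47 inside the vehicle range of 6.12 to 6.55.

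Both measured Dishevelled genes rose. DVL3 read 5.69, 5.53 and 5.69 in NU7441 cells against 5.19, 5.32 and 5.15 in vehicle cells, without overlap, a change of 0.42 ± 0.11 (limma adjusted p = 0.0105). Without vehicle replicate 3 its adjusted p was 0.0516. DVL2 changed by the same amount, 0.42 ± 0.14 (adjusted p = 0.034), but its arrays overlapped, at 5.38, 5.60 and 5.85 in NU7441 cells against 5.41, 5.19 and 4.99 in vehicle cells. The adjusted p of DVL2 was 0.0731 without NU7441 replicate 2, 0.111 without NU7441 replicate 3, 0.087 without vehicle replicate 2 and 0.159 without vehicle replicate 3. It was also between 0.0577 and 0.157 in 5 other alternatives that ended the call, the deposited log2 table among them.

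In the destruction complex, AXIN1, the scaffold that brings β-catenin to its kinases, was the 1 gene of 3 measured that rose. It read 6.03, 6.17 and 6.25 in NU7441 cells against 5.91, 5.73 and 5.87 in vehicle cells, without overlap, a change of 0.31 ± 0.11 (limma adjusted p = 0.0476). That call sat at the threshold. The adjusted p was 0.104 without NU7441 replicate 2, 0.103 without NU7441 replicate 3, and, leaving out vehicle replicates 1, 2 and 3 in turn, 0.0714, 0.166 and 0.096, and it was 0.159 with arrays scaled to their 75th percentile. A second AXIN1 probe was detected on none of the 6 arrays.

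CTNNB1, the gene of β-catenin, had 3 kept probes of 7 on the array and none was called. The brightest read 7.50, 7.47 and 7.78 in NU7441 cells against 7.36, 7.54 and 7.44 in vehicle cells, and the next 7.35, 7.26 and 7.45 against 7.54, 7.45 and 7.44. Their changes had opposite signs, 0.14 ± 0.12 (limma adjusted p = 0.392) and -0.12 ± 0.11 (adjusted p = 0.407), and the third was at 0.11 ± 0.13. CSNK1A1, the casein kinase that primes β-catenin for degradation, also had 3 kept probes, at 0.17, -0.27 and 0.00, none called. The dimmest, at 0.00, likewise passed through the NU7441 arrays alone and adds no support. The middle CSNK1A1 probe read 5.98, 5.79 and 5.57 in NU7441 cells against 6.01, 6.22 and 5.93 in vehicle cells. Its adjusted p was 0.124 with all arrays and 0.0492 without NU7441 replicate 1. TCF7L2, the TCF/LEF factor with a kept probe, overlapped between the groups, at 5.21, 5.49 and 5.55 in NU7441 cells against 5.36, 5.79 and 5.40 in vehicle cells, a change of -0.10 ± 0.14 (adjusted p = 0.611).

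**Figure D2:**
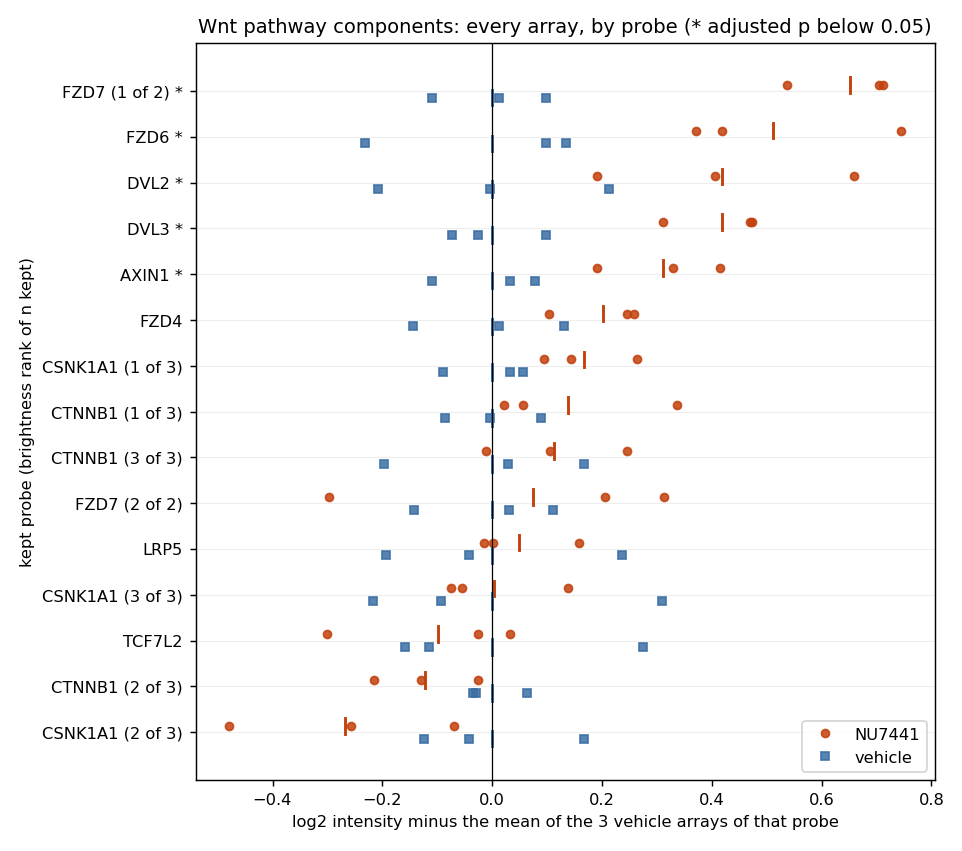
Log2 intensity of each of the 15 kept component probes on every array, minus that probe's mean over the 3 vehicle arrays, with NU7441 arrays as orange circles, vehicle arrays as blue squares, short bars at the group means and an asterisk for an adjusted p below 0.05. FZD7, FZD6, DVL3 and AXIN1 have all NU7441 arrays right of the vehicle arrays, whereas DVL2 overlaps and the CTNNB1 and CSNK1A1 probes lie on both sides of 0.

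Among the targets that act as feedback inhibitors, the 2 membrane ubiquitin ligases that remove Frizzled receptors from the cell surface both rose. RNF43 read 5.82, 5.49 and 6.03 in NU7441 cells against 5.27, 5.18 and 5.20 in vehicle cells, without overlap, a change of 0.56 ± 0.13 (limma adjusted p = 0.00521). It stayed called when any 1 array was left out. ZNRF3 read 5.28, 5.35 and 5.15 in NU7441 cells against 4.99, 4.84 and 4.95 in vehicle cells, also without overlap, a change of 0.33 ± 0.11 (adjusted p = 0.0338). The ZNRF3 call was less firm, with an adjusted p of 0.063 without NU7441 replicate 1, 0.108 without NU7441 replicate 2, and, leaving out vehicle replicates 1, 2 and 3 in turn, 0.0599, 0.122 and 0.0794. In the deposited log2 table it was 0.093.

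AXIN2, a target that replaces or joins AXIN1 in the destruction complex and is often read as a gauge of pathway output, did not pass. It read 7.21, 7.37 and 7.42 in NU7441 cells against 7.06, 6.96 and 7.13 in vehicle cells. The groups did not overlap, yet the change of 0.29 ± 0.11 had a limma adjusted p of 0.0649. Leaving out NU7441 replicate 1 gave 0.0415, and 5 further alternatives also brought it past the threshold, at 0.0253 to 0.0462.

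NKD2, which binds Dishevelled and restrains it, fell. It read 5.388, 5.760 and 5.539 in NU7441 cells against 5.987, 6.063 and 5.996 in vehicle cells, with no overlap, a change of -0.45 ± 0.12 (limma adjusted p = 0.00978). It stayed called when any 1 array was left out, at adjusted p-values up to 0.0417. Of 4 measured feedback inhibitors inside the cell or in its membrane, 2 thus rose, 1 fell and 1 was not called. Over all kept probes 16.7% were higher and 17.5% lower.

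DKK1, a secreted antagonist that binds LRP5 and LRP6, had the largest change of any member and was the 1 member past 2-fold. On its brighter probe the deposited signals were 167.1, 190.8 and 217.9 in NU7441 cells against 494.1, 461.2 and 489.0 in vehicle cells. After normalization they averaged 7.16 ± 0.09 in NU7441 cells and 8.62 ± 0.04 in vehicle cells (SD, n = 3 each), far outside the spread within either group. The change was -1.46 ± 0.11 (limma adjusted p = 6.04e-07), or 2.74-fold lower, and ranked at place 58 in size among the 14973 kept probes.

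The second DKK1 probe had arrays at 4.25, 4.20 and 4.42 in NU7441 cells against 4.75, 4.71 and 5.02 in vehicle cells. It was not above background on 2 of the 3 NU7441 arrays and was kept for its vehicle level, so no size of change is drawn from it. Leaving out any 1 array kept the brighter probe between -1.49 and -1.41. The start site shown above for DKK1 holds 2 of the searched strings, and that of TCF7L2, whose level was not called, holds 1.

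BMP4, a ligand of the bone morphogenetic protein family, had the next largest fall. It read 6.88, 6.85 and 6.78 in NU7441 cells against 7.56, 7.78 and 7.61 in vehicle cells, with the groups far apart. The change was -0.81 ± 0.11 (limma adjusted p = 9.97e-05), or 1.76-fold lower, and stayed between -0.85 and -0.75 with any 1 array left out. Its 3 start sites held none of the searched strings.

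SOX9, a transcription factor of crypt progenitor cells, rose. It read 7.69, 7.85 and 8.12 in NU7441 cells against a narrow 7.43, 7.44 and 7.41 in vehicle cells, a change of 0.46 ± 0.12 (limma adjusted p = 0.0103). It was not called with arrays scaled to their 75th percentile, at 0.30 (adjusted p = 0.118). SOX4, a related factor, pointed the other way without passing, at 8.182, 8.290 and 8.198 in NU7441 cells against 8.685, 8.394 and 8.433 in vehicle cells. Its groups did not overlap, and the change was -0.28 ± 0.12 (adjusted p = 0.0772). It was past the threshold in 5 alternatives, at adjusted p-values of 0.0138 to 0.0492.

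SLC12A2, a sodium-potassium-chloride cotransporter of crypt cells, had probes that both lay on the higher side, 1 of them called. The dimmer read 5.68, 5.86 and 5.92 in NU7441 cells against 5.42, 5.18 and 4.92 in vehicle cells, without overlap, a change of 0.65 ± 0.14 (limma adjusted p = 0.00221). The brighter was at 0.28 ± 0.12 (adjusted p = 0.0963), with overlapping arrays. When the kept probes of each gene were averaged, the change was 0.46 with an adjusted p of 0.00649.

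CD44, a hyaluronan receptor, had 3 kept probes at 0.19, 0.12 and 0.24, none of them called. The dimmest, at 0.24, passed the filter through the NU7441 arrays alone, so its value adds no support. The brightest read 9.92, 9.75 and 9.87 in NU7441 cells against 9.66, 9.61 and 9.70 in vehicle cells, without overlap, with an SE of 0.11 and a limma adjusted p of 0.182. It was called without background correction, at 0.18 (adjusted p = 0.0373), and in the deposited log2 table, at 0.19 (adjusted p = 0.0371). EPHB4, a receptor of ephrin-B ligands, was at -0.10 ± 0.13 and TNFRSF19, a receptor of the tumour necrosis factor family, at -0.10 ± 0.14, both with overlapping groups. The TNFRSF19 probe passed the filter through the vehicle arrays alone.

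**Figure D3:**
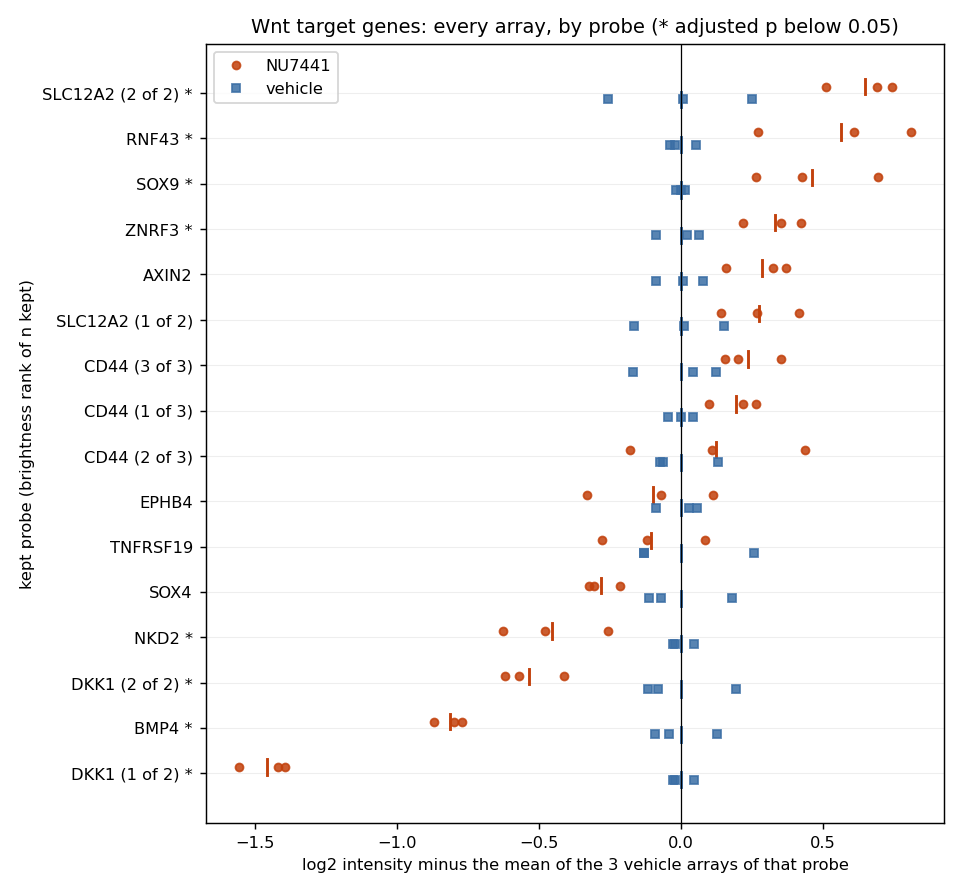
Log2 intensity of each of the 16 kept target probes on every array, minus that probe's mean over the 3 vehicle arrays, with NU7441 arrays as orange circles, vehicle arrays as blue squares, short bars at the group means and an asterisk for an adjusted p below 0.05. DKK1 and BMP4 lie far to the left, SLC12A2, RNF43 and SOX9 to the right, and AXIN2 and SOX4 are separated but have no asterisk.

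The remaining 19 members could not be compared. No probe was named for TCF7 or EPHB2 in the annotation used, so they were not analysed here. Kept probes were lacking for 8 components, namely LRP6, FZD1, FZD5, LGR4, DVL1, APC, TCF7L1 and LEF1. They were also lacking for 9 targets, namely LGR5, ASCL2, SP5, PROX1, EPHB3, DKK4, APCDD1, NKD1 and MMP7. LGR5, the marker of crypt stem cells, had deposited signals of 70.6 to 72.7 on NU7441 arrays and 69.0 to 73.3 on vehicle arrays, with detection p-values no lower than 0.247. ASCL2, a transcription factor of the same cells, was likewise detected on no array. Closest to the filter was a probe of FZD1, detected on 2 of 3 arrays in each group, with signals of 73.3, 78.5 and 80.3 in NU7441 cells against 79.2, 80.9 and 77.6 in vehicle cells. Just inside it, TNFRSF19 was detected on 2 NU7441 arrays and 3 vehicle arrays, with signals of 76.3, 81.0 and 76.4 against 86.7, 78.0 and 78.8. The probes of members without a kept probe were not above background by the filter, which does not show that the transcripts were absent.

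Another 124 genes of the pathway were listed in 6 groups, and 62 had a kept probe. On the brightest kept probe 6 were called higher (9.68%) and 11 lower (17.7%), with a median of -0.04, beside 17.8% and 18.9% of all 9342 named genes taken the same way. Among the 53 detected on all 6 arrays, 6 were higher and 9 lower, beside 18.1% and 18.9% of the 8283 named genes so detected. Ligands were seldom measured: 5 of 25 ligand and secretion genes had a kept probe. Of these WNT3A, a ligand of the β-catenin pathway, was detected on none of the 3 NU7441 arrays, where its mean was 4.26, and had vehicle arrays at 5.06, 5.16 and 5.18. It was kept through the vehicle arrays alone, so its lower call adds no support. Its level in NU7441 cells was not above background, so no size of change is drawn from WNT3A. WLS, the carrier that brings Wnt ligands to the surface, was at 0.01.

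Of 8 other receptors, KREMEN2, a DKK1 co-receptor, fell, at -0.46 ± 0.12 (limma adjusted p = 0.00751), and 0 rose. That is 12.5% lower, beside 17.8% higher and 18.9% lower of all named genes. Of 15 other cytosolic components 1 rose (6.67%), and 1 was called lower (6.67%) after passing the filter through the vehicle arrays alone. FRAT2, an inhibitor of the kinase GSK3, read 6.26, 6.09 and 6.21 in NU7441 cells against 5.39, 5.55 and 5.76 in vehicle cells, a change of 0.62 ± 0.12 (adjusted p = 0.00152). The lower call was AMER1, an APC-binding scaffold, above background on 1 of 3 NU7441 arrays, and no size of change is drawn from it. GSK3B, the kinase itself, was at -0.02 ± 0.12 (adjusted p = 0.913).

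Of 15 nuclear cofactors 1 rose (6.67%) and 2 fell (13.3%), beside 17.8% and 18.9% of all named genes. RUVBL1, an ATPase that binds β-catenin, was lower on both of its probes, at -0.74 ± 0.13 (limma adjusted p = 0.000544) and -0.72. SMARCA4, a chromatin remodeller, was at -0.38 ± 0.12 (adjusted p = 0.0255). Its adjusted p was 0.0652 without NU7441 replicate 2, 0.071 without NU7441 replicate 3, 0.0618 without vehicle replicate 2 and 0.101 without vehicle replicate 3. CTBP2, a co-repressor, was higher on its brighter probe, at 0.68 ± 0.16 (adjusted p = 0.00411), but its other probe was at -0.33 ± 0.13 (adjusted p = 0.0635), so its direction is uncertain.

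Of 18 other published targets measured, 4 rose (22.2%) and 6 fell (33.3%), beside 17.8% and 18.9% of all named genes. MYB, a transcription factor of progenitor cells, read 4.443, 4.678 and 4.591 in NU7441 cells against 5.882, 5.429 and 6.005 in vehicle cells, a change of -1.20 ± 0.14 (limma adjusted p = 3.11e-05). Its NU7441 levels were close to background. In the deposited log2 table, which kept the background, the change was -0.47 for MYB and -0.86 for MYC. MYC was at -0.92 ± 0.12, BIRC5, survivin, at -0.87 ± 0.15 and CCND1, cyclin D1, at -0.38 ± 0.11. JUN, a subunit of AP-1, read 7.03, 7.20 and 6.69 in NU7441 cells against 5.99, 5.67 and 6.01 in vehicle cells, a change of 1.08 ± 0.14 (adjusted p = 6.96e-05). MET, the receptor of hepatocyte growth factor, was at 0.65 ± 0.15, and ID2, an inhibitor of DNA binding, at 0.51 ± 0.11 with a second probe at 0.24 that was not called (adjusted p = 0.0965). Many of these genes answer to other pathways too, and none of the values separates those inputs.

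**Figure D4:**
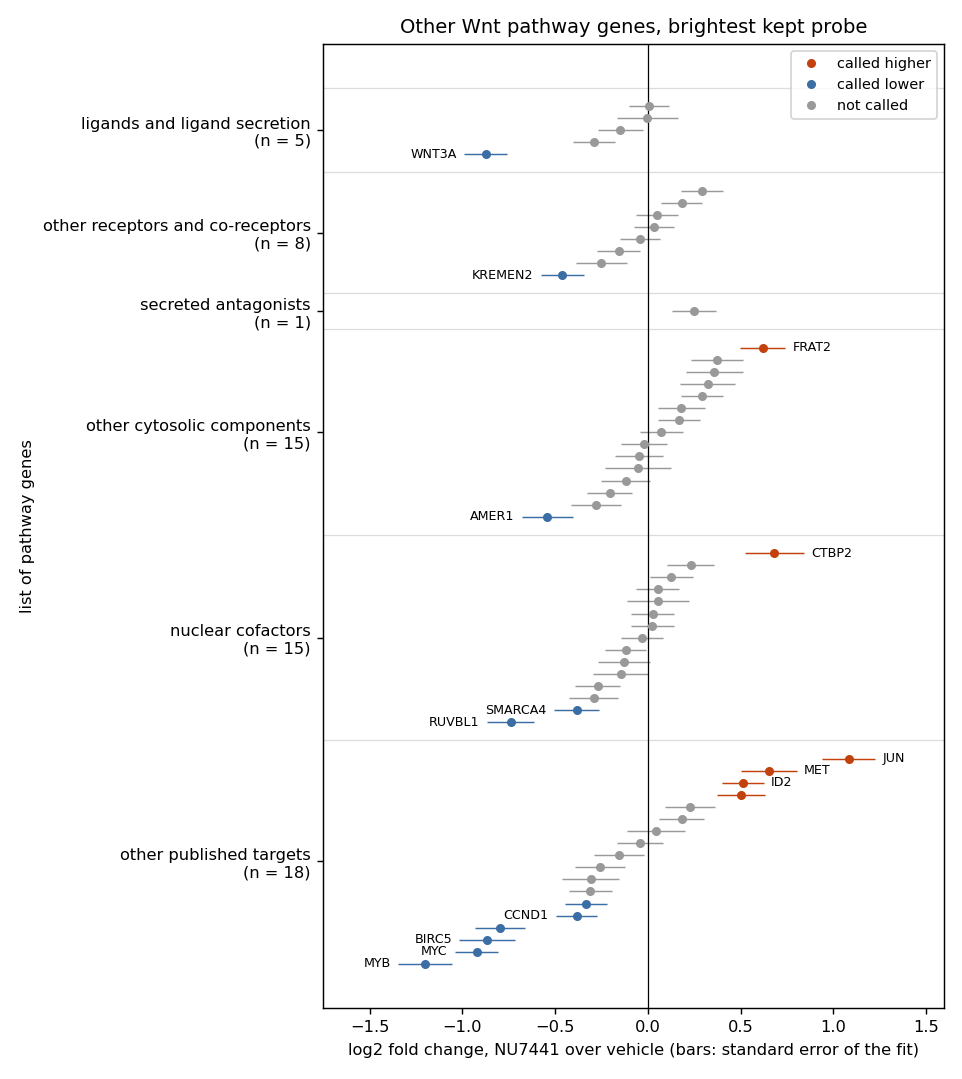
Change (NU7441 minus vehicle, log2 scale, bars one standard error) for the brightest kept probe of 62 other pathway genes in 6 lists, orange where called higher, blue where called lower and grey where not called, with names for those described. Most grey points of the receptor, cytosolic and cofactor lists lie near 0, and the published targets spread from MYB at -1.20 to JUN at 1.08.

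Fold sizes depended on background correction. In the deposited log2 table, which kept the background, DKK1 was at -1.20 on its brighter probe, BMP4 at -0.61, NKD2 at -0.22, FZD7 at 0.26, RNF43 at 0.25 and SLC12A2 at 0.28 on its dimmer probe. All 13 called member probes kept their sign in every alternative run that measured them. The brighter probes of DKK1 and FZD7, the dimmer probe of SLC12A2 and the probes of BMP4, NKD2 and RNF43 were called in each such alternative.

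**Figure D5:**
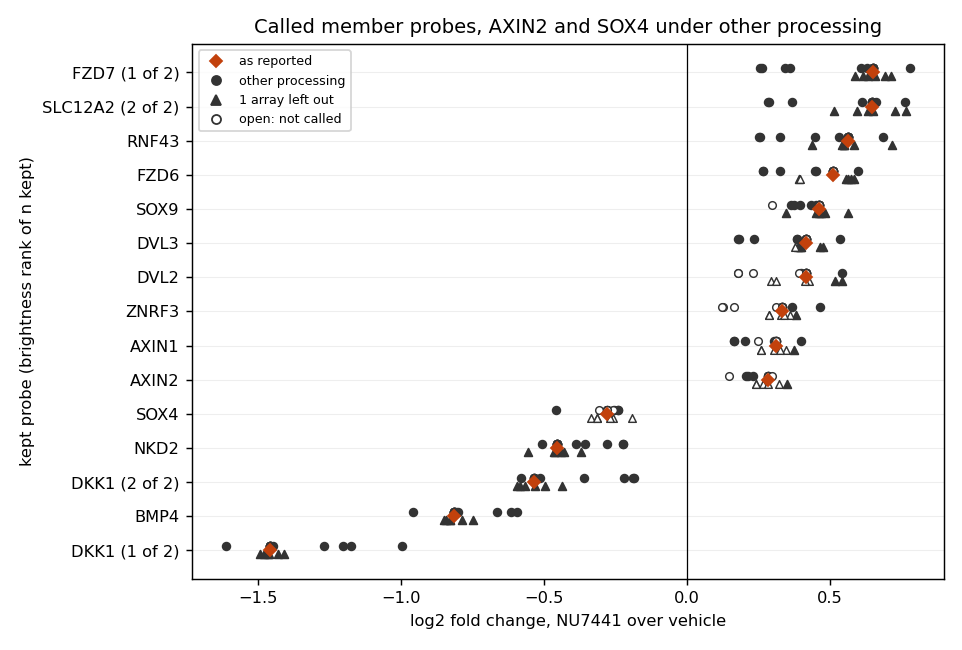
Log2 fold change of the 13 called member probes and of AXIN2 and SOX4, as reported (orange diamonds), under other processing (circles) and with 1 array left out (triangles), open where the value was not called. DKK1, BMP4, NKD2, FZD7, RNF43 and the SLC12A2 probe have no open symbols, while DVL2, AXIN1 and ZNRF3 have many.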

How the data were processed

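Total RNA of 6 samples was labelled with biotin and hybridised to Illumina bead arrays, per the labels' protocols. The deposited main table holds, per the file headers, an intensity and a detection p-value for every probe on every array, linear and without normalization. The other deposited table has log2 values of the same arrays, which differed by at most 0.0676 from the quantile normalized log2 signals and had a median of 6.22 in each column, so they are log2 and not centred. They served as an alternative. GenomeStudio, lumi and R 3.0.2 are named per the submitters' processing notes, with settings not given in the sources used here.

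Signals were background corrected by normexp with limma 3.58.1 in R 4.3.3 (offset 16, background estimated through the detection p-values), then log2 transformed and quantile normalized. Of 47323 probes 14973 were kept. GEO's platform annotation gave 30112 probes 1 gene symbol, 8 several and 17203 none. Each kept probe was tested with lmFit and eBayes, group as the only term, and p-values were adjusted over all kept probes. Every probe of a member is given, and other pathway genes are given by their brightest kept probe. Named were all members, up to 3 higher and 3 lower genes of each other list with the largest change, MYC and CCND1. GSK3B and WLS were named after their values were seen. Members, classes and lists were chosen with earlier results of these data known. On simulated data over 14973 probes of the NU7441 against vehicle comparison, 200 were changed. There 24.4% of changes of 0.5 on the log2 scale and 84.8% of changes of 1 were recovered, and 3.16% of calls were false. In the data 5126 probes were called, far more than 200, so these rates do not describe the comparison itself. Alternatives were other background corrections, scalings, filters, probe summaries, variance models, thresholds, weights per array, a replicate block and leaving out each array with the same probes kept. The slide was not given in the files. Python 3.11.15 with matplotlib 3.10.9 drew the figures.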

Additional observations from a re-analysis of the deposited data

How the results depend on the processing

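The count of component probes called higher was 5, and 3 with 75th percentile scaling, 2 with no detection filter, 2 at an adjusted p below 0.01 and 2 to 5 with 1 array left out. The count of component probes called lower was 0, and 0 to 1 with 1 array left out. The count of target probes called higher was 4, and 2 with 75th percentile scaling, 2 at an adjusted p below 0.01 and 3 to 4 with 1 array left out, and the count called lower was 3 to 5 in all alternatives. Over all probes, 2507 were higher and 2619 lower, with 1385 and 1639 at an adjusted p below 0.01, and 1796 to 2489 and 1982 to 2572 with 1 array left out. The share of calls that were higher was 48.9%, 36.5% with 75th percentile scaling over all probes and 65.9% over the probes detected on all 6 arrays, a scaling chosen after seeing the data that moved the median of all probes to 0.113. The median change of component probes was 0.138, and 0.079 without background correction, 0.059 with 75th percentile scaling, 0.077 in the deposited log2 table, 0.003 with no detection filter, 0.257 with the brightest probe per gene, 0.257 with the mean of probes, 0.21 with the scaling over detected probes and 0.123 to 0.184 with 1 array left out. That of target probes was 0.159, and in the same order 0.08, 0.061, 0.082, 0.014, 0.049, 0.044, 0.212 and 0.102 to 0.208, and 0.098 with an offset of 50. The cause of these differences was not tested, except that the summaries per gene count 10 and 12 genes in place of 15 and 16 probes. Signs changed only in values that were not called: CSNK1A1 on its dimmest probe at -0.002 with an offset of 50 and on its mean at -0.033, LRP5 at -0.043 and the brightest CTNNB1 probe at -0.018 with 75th percentile scaling, and TCF7L2 at 0.028, TNFRSF19 at 0.055 and EPHB4 at 0.012 with the scaling over detected probes. With 1 array left out, LRP5 ran from -0.049 to 0.164, the dimmer FZD7 probe from -0.048 to 0.253, the dimmest CSNK1A1 probe from -0.103 to 0.158, TCF7L2 from -0.175 to 0.04, TNFRSF19 from -0.2 to 0.024, EPHB4 from -0.202 to 0.021 and the middle CD44 probe from -0.034 to 0.275. Same-numbered samples of the groups did not deviate together (correlations of -0.113, 0.046 and -0.066). With 3 arrays per group, these correlations cannot show whether the numbers pair the samples. With a replicate block 4 component probes were higher and 0 lower, 3 target probes higher and 4 lower, and 2393 probes higher and 2473 lower. AXIN1 and ZNRF3 were then not called (limma adjusted p = 0.0696 and 0.0539). Of 828 single values under alternatives, 743 kept sign and call, 50 lost the call, 17 gained it and 18 changed sign. Dim probes near background limit the precision of fold sizes.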
